A study of Mus musculus with 9 samples.

Results

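The genes described here encode the lysosome's hydrolases and their helper proteins, its membrane proteins, the subunits of its proton pump and the transcription factor Tfeb. They were followed across 3 populations of lysozyme-expressing phagocytes of mouse Peyer's patches. The 38 genes were listed by name, and each was read from the transcript cluster, meaning the set of probes for 1 transcript unit, that the platform annotation maps to that symbol alone. For 4 genes with a pair of such clusters, the brighter on average was taken. This gave 36 genes among the 33793 transcript clusters. Glb1 (beta-galactosidase) and Atp6v0c (the proteolipid of the pump's membrane ring) had no cluster assigned to them alone and are not described by values.

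Lysosomes are acidic organelles in which phagocytes break down what they have taken up. Soluble hydrolases digest glycolipids, glycans, lipids and proteins, and several of them need an activator protein that lifts the substrate from the membrane. The acid pH is made by the vacuolar proton pump (V-ATPase), whose V1 sector splits ATP on the cytosolic side and whose V0 sector carries protons through the membrane. Lysosome-associated membrane proteins line the organelle, while transporters and channels export the products of digestion, lipids and ions. Macrophages degrade most of what they engulf, whereas dendritic cells are known for milder proteolysis that spares peptides for presentation. Tfeb and its relatives, the MiT/TFE factors, can switch on many of these genes together through a short E-box element in their promoters.

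The populations were LysoMac, macrophages that express lysozyme, and LysoDC, dendritic cells that express lysozyme, sorted as C5aR+ or C5aR- (C5aR binds the complement fragment C5a). Each had 3 arrays. All cells came from Peyer's patches digested with collagenase and DNase, were freed of dead cells, enriched on CD11c beads and then sorted by flow cytometry. No genotype, treatment, strain, sex or age is given in the sources used here, and neither are the sort gates or the number of pooled animals. The arrays measure RNA from sorted pools, so fewer cells of a kind with high levels and less RNA per cell cannot be told apart.

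Values are log2 expression per transcript cluster. They compare populations for 1 gene and not 1 gene with another, because probes differ in brightness. Array medians ran from 3.39 to 3.65, and 34 of the 36 genes lay above the median of every array. The gene of the sorted receptor, C5ar1, read 4.62, 4.19 and 4.99 in LysoMac, 4.92, 4.09 and 5.04 in C5aR+ LysoDC and 3.04, 2.72 and 3.27 in C5aR- LysoDC. Macrophage genes did not all peak in LysoMac. Fcgr1, a high-affinity antibody receptor, averaged 4.64 there against 7.94 in C5aR+ LysoDC, and Siglec1, a lectin of resident macrophages, averaged 3.17 there, below the array medians. Csf1r and C1qa were bright in all populations, with means of 10.00 to 10.90 and 10.78 to 11.54. Of the dendritic cell markers, Flt3 averaged 3.62 in LysoMac, 4.39 in C5aR+ and 7.08 in C5aR- LysoDC. LysoMac arrays varied most, and array 3 correlated better with the arrays of other populations (mean r = 0.968) than with its own (0.954). Counts and medians of the comparisons with LysoMac are therefore also given without array 2 or 3, as are the values of Tpp1, Galc, Atp6v0d2 and Atp6v1d where they move.

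Promoters were examined because Tfeb and its relatives bind a palindromic E-box whose shortest form reads CACGTG. RefSeq promoter windows on build GRCm38.p6, from 250 bases before to 50 bases after a start, were at hand for 30 of the 36 genes. CACGTG stood in the window of 10 of these 30 genes (33.3%), against 8.09% of 27025 genes with a window. The longer TCACGTGA stood in 4 of 30 (13.3%), against 1.12% of all genes. Its 10-base form, with a G before and a C after it, stood in 0 of 30. That form stood in 2.17% of 92 genes of other lysosomal lists and in 0.37% of all genes. For so rare a word, 30 genes are too few to tell its absence from the rate of all genes. Every TCACGTGA contains a CACGTG and both words read the same on either strand. CATGTG, searched on both strands, stood in 16.7% of the genes and in 15.9% of all genes. These counts describe letters in windows, and the arrays hold no measure of binding.

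The promoter of Lamp1 is shown because it held the most copies, 4, at chr8:13158911-13159210 on the plus strand. The promoter of Atp6v0b, with 2 copies at chr4:117887280-117887579 on the minus strand, is shown because this pump subunit had the smallest unadjusted p between the LysoDC populations. Tpp1, the 1 gene that passed a test, lies at chr7:105752186-105752485 on the minus strand and is shown for contrast. It had no CACGTG, and its 2 CATGTG words, 1 on each strand, stood just after the start. Capitals mark CACGTG in the first 2 sequences and CATGTG or its reverse complement in that of Tpp1, all 5′ to 3′.
Lamp1: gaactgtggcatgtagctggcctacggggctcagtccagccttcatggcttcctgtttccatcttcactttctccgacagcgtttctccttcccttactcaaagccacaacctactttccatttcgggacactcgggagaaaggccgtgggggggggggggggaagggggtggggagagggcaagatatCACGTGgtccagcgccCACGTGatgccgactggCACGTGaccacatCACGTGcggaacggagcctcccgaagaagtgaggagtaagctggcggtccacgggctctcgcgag
Atp6v0b: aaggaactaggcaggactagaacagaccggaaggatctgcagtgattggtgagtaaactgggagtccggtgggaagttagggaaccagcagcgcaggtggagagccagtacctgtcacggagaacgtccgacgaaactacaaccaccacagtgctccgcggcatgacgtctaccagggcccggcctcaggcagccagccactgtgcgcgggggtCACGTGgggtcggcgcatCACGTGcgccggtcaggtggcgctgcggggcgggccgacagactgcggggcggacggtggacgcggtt
Tpp1: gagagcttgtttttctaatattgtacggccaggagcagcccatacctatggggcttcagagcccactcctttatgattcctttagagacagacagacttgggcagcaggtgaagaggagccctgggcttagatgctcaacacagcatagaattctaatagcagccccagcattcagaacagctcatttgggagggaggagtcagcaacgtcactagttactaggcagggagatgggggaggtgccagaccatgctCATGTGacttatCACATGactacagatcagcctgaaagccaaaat

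The longer TCACGTGA, in capitals with 12 bases on each side, was present near the starts of Mcoln1 (chr8:3500461-3500492, plus strand), Atp6v0d1 (chr8:105566049-105566080), Atp6v1a (chr16:44139372-44139403) and, as a pair, Gla (chrX:134601214-134601245 and chrX:134601181-134601212), the latter 3 genes on the minus strand. These windows are printed to show how far the 8 letters are shared while the flanks differ.
Mcoln1: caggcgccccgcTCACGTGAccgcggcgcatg
Atp6v0d1: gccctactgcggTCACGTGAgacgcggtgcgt
Atp6v1a: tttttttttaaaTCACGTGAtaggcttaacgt
Gla, distal: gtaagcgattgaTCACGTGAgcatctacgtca
Gla, proximal: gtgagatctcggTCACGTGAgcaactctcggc

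**Figure D1:**
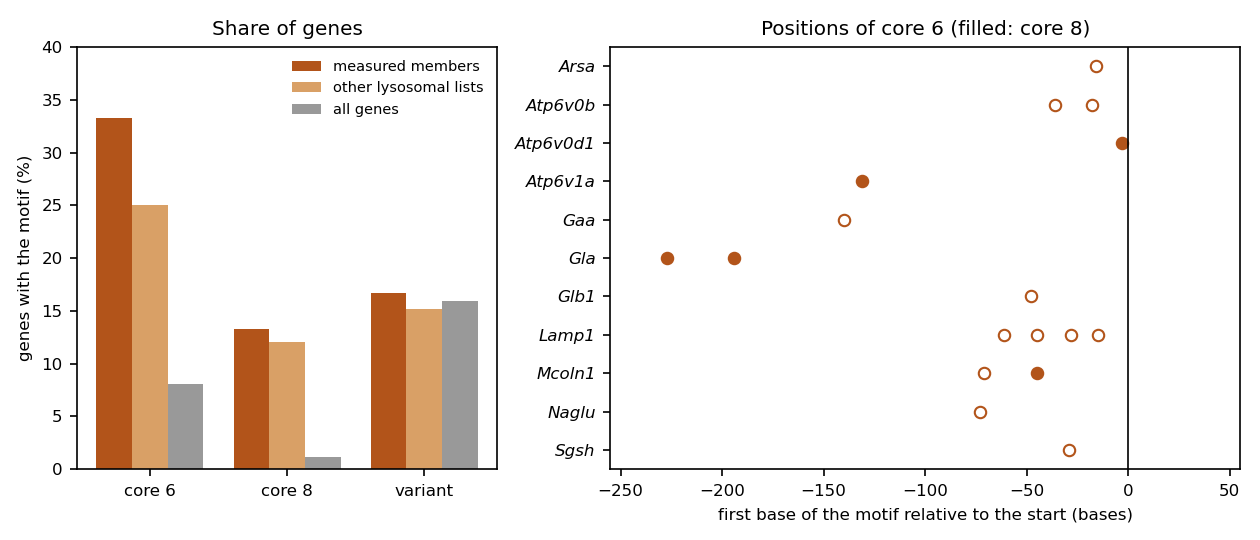
Left, the share of genes (%) whose promoter window held CACGTG (core 6), TCACGTGA (core 8) or CATGTG (variant), for 30 measured lysosomal genes, 92 genes of other lysosomal lists and 27025 genes in all. Right, each circle is a CACGTG, placed by its distance in bases from the start of its gene and filled where it lies in TCACGTGA. Most copies sit within 75 bases of the start, with those of Gla, Gaa and Atp6v1a farther out. Glb1 is drawn although its expression was not read.

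C5aR- LysoDC had the lowest lysosomal gene levels. Their mean was the lowest of the 3 populations for 28 of 36 genes (77.8%), against 41% of all transcript clusters, and C5aR+ LysoDC had the lowest mean for 0 of 36, against 27.8%. The highest mean was in C5aR+ LysoDC for 20 genes, against 25% of all clusters, and in LysoMac for 15, against 46.1%. Gm2a was highest in C5aR- LysoDC, with its 3 means spanning 10.55 to 10.79. Single differences were small beside the spread of the arrays. In limma's moderated F test over the 3 populations 0 of 36 genes passed, where 0.755% of clusters did, while 9 of 36 had an unadjusted p under 0.05 (9.2% of clusters). Of the 3 comparisons, 1 call was made, for Tpp1.

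**Figure D2:**
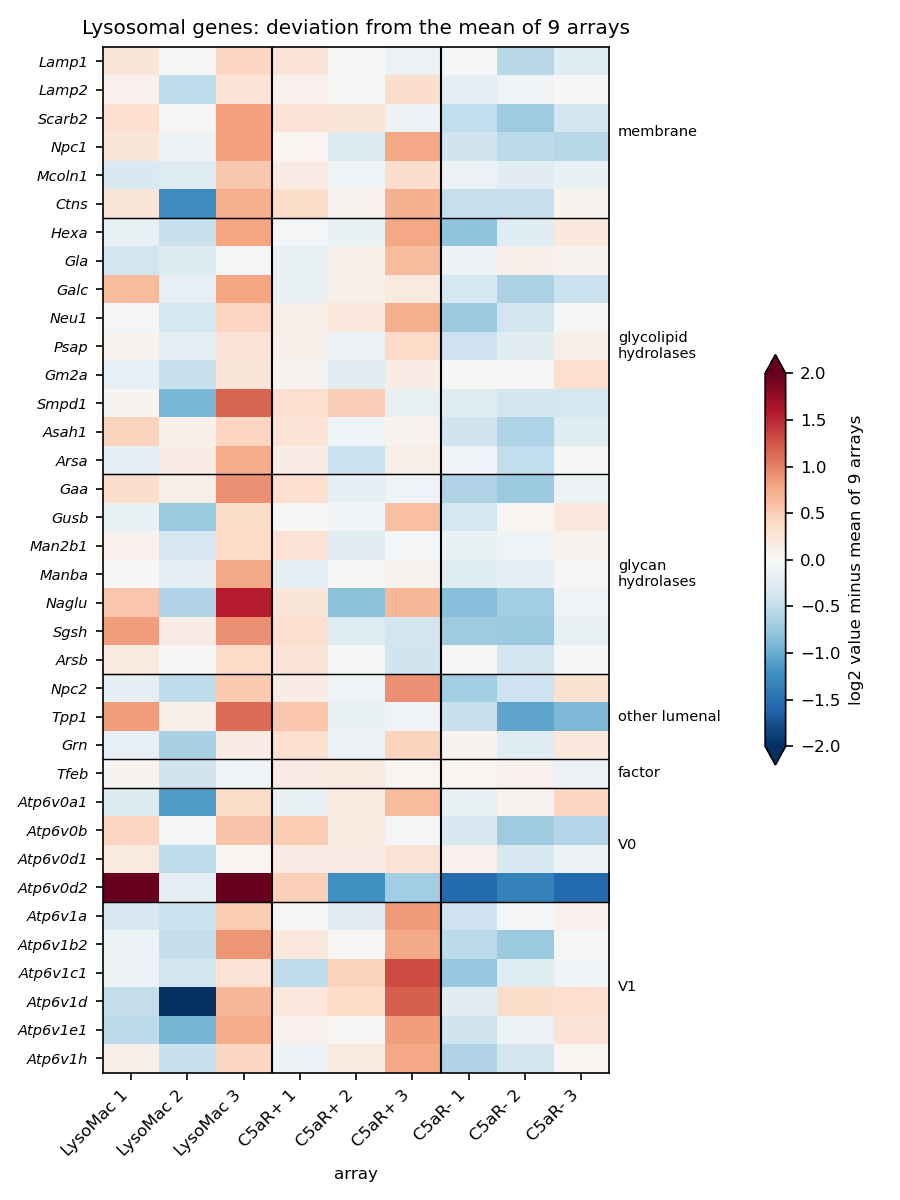
Each row is a lysosomal gene and each column an array, coloured by the log2 value minus the gene's mean over 9 arrays. C5aR- LysoDC columns are mostly blue, LysoMac array 3 is mostly red and LysoMac array 2 mostly blue. The colour scale ends at 2, which Atp6v0d2 exceeds upward in LysoMac arrays 1 and 3 and Atp6v1d downward in LysoMac array 2.

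The first question was whether LysoDC with and without the receptor differ in lysosomal genes, so the values are C5aR+ minus C5aR-. The difference was above 0 for 35 of 36 genes, with a median of 0.44 on the log2 scale, against 53.3% and a median of 0.015 over all clusters. Among the 17719 clusters of the brighter part of the array, which includes all 36 genes, 52.4% were above 0. In 14 genes (38.9%) all 3 C5aR+ arrays lay above all 3 C5aR- arrays, as in 5.12% of all clusters, and in 0 genes they lay below. The 14 include Atp6v0d2, near background in C5aR- cells, and Lamp2 and Ctns, whose arrays nearly touched. With limma 0 of 36 genes passed (0.101% of clusters did), and 6 had an unadjusted p under 0.05, all of them higher in C5aR+ cells (2.36% of clusters). The count above 0 stayed between 32 and 35 when any array was left out, and the median between 0.28, without C5aR+ LysoDC array 3, and 0.53.

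C5aR- LysoDC were set against LysoMac, the macrophages of the same tissue. Tpp1 fell, and 28 of 36 differences were below 0, with a median of -0.33, against 58.7% and -0.059 over all clusters. Among the brighter clusters, 49.3% were below 0, with a median of 0.0068. The call is 2.78% of the 36 genes, where 1.53% of all clusters passed and 0.405% passed as lower. In 10 genes (27.8%) every C5aR- array lay below every LysoMac array, as in 6.88% of clusters, and all 10 had an unadjusted p under 0.05 (5.89% of clusters). The size of this shift rested on single LysoMac arrays. Without array 3 the median was -0.079 with 19 genes below 0, and without array 2 it was -0.49 with 30 below 0.

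Between C5aR+ LysoDC and LysoMac the arrays overlapped in every gene as deposited. Of the differences 21 were above 0 and 15 below, with a median of 0.13, 0 genes passed in limma (0.0503% of clusters did), and in 0 of 36 genes were the arrays free of overlap (7.89% of clusters). An unadjusted p under 0.05 was reached by 2 genes, Sgsh and Atp6v0d2, both lower in C5aR+ cells (2.65% of clusters). Without LysoMac array 2 the median was -0.082, and without array 3 it was 0.33, so its sign depended on the array. After quantile normalization the median was 5.9e-05, with 8 genes at an unadjusted p under 0.05 in limma. After cyclic loess it was -0.041, with 7 such genes, and the replicate number as a block gave 8. In each of these settings 0 genes passed (0.0651%, 0.0592% and 0.0592% of clusters did). The 2 comparisons with LysoMac share its arrays.

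**Figure D3:**
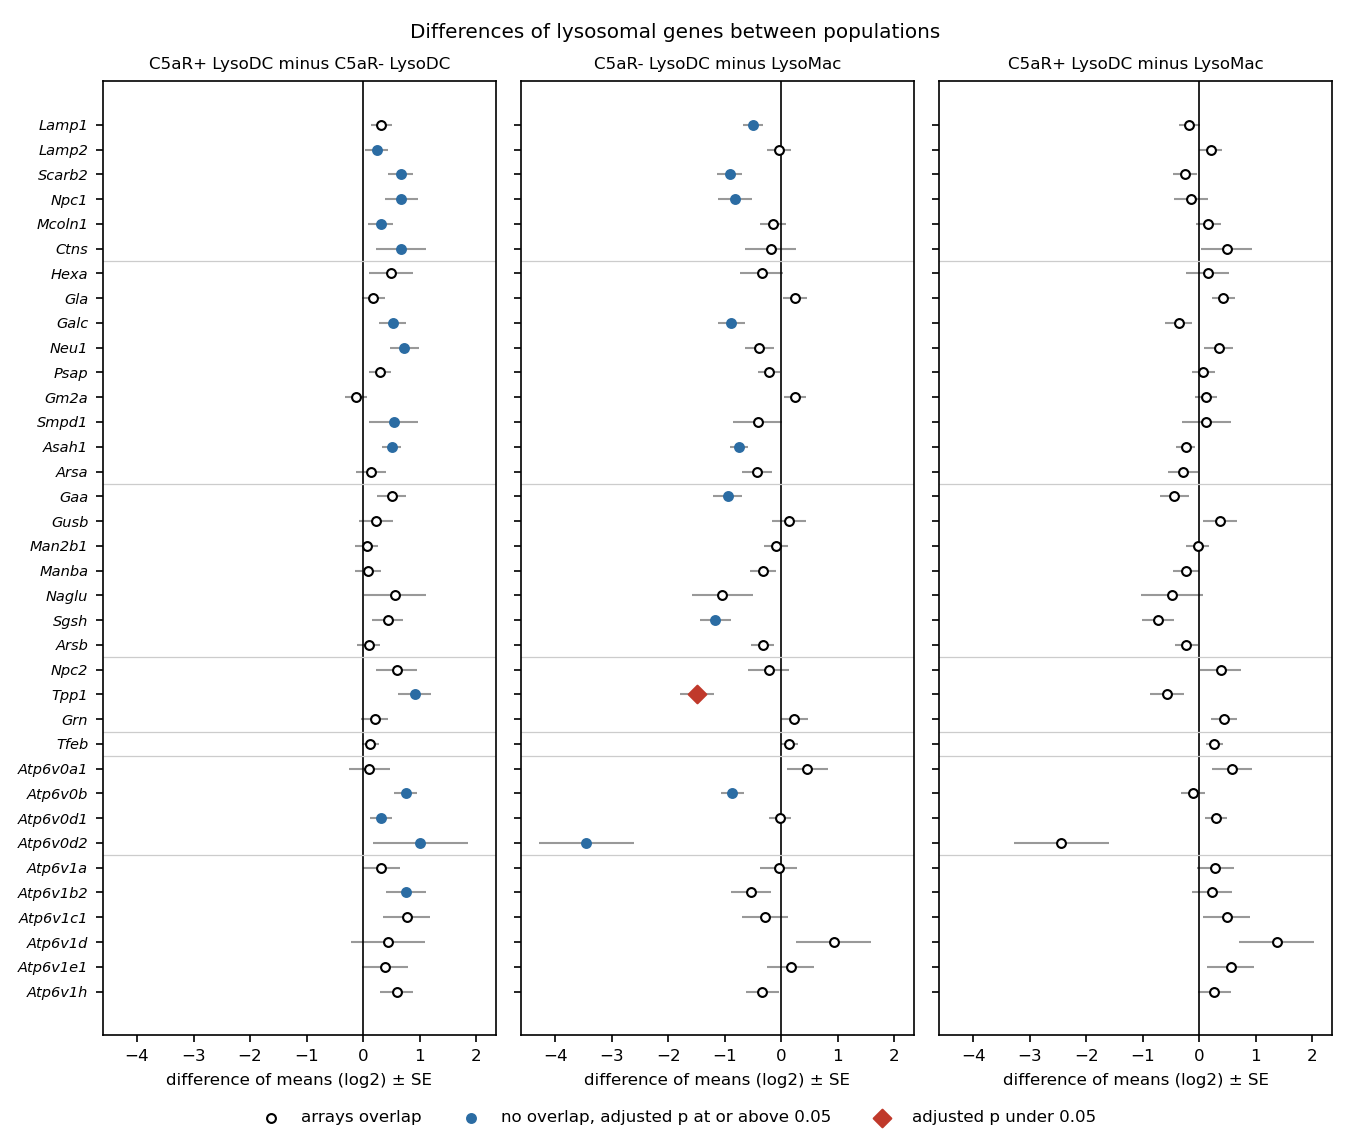
Points give the difference of population means (log2) for 36 genes with its SE (n = 3 arrays per population). Filled blue points mark genes whose arrays did not overlap (14, 9 and 0 genes from left to right, beside Tpp1 in the middle), and the red diamond marks Tpp1, the 1 gene that passed in limma. The points of the left panel lie right of 0 except that of Gm2a.

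Among soluble proteins, Tpp1, a lysosomal protease that trims tripeptides from the ends of proteins, showed the clearest order. It read 10.04, 9.32 and 10.33 in LysoMac, 9.76, 9.06 and 9.14 in C5aR+ LysoDC and 8.76, 8.15 and 8.31 in C5aR- LysoDC. Every C5aR- array lay below every other array, while LysoMac and C5aR+ cells overlapped. In C5aR- LysoDC, Tpp1 fell by 1.49 ± 0.30 relative to LysoMac (SE, 3 arrays each), or 2.81-fold (limma, adjusted p = 0.0477). It differed by 0.91 ± 0.30 between C5aR+ and C5aR- cells (adjusted p = 0.579) and by -0.58 ± 0.30 between C5aR+ cells and LysoMac (adjusted p = 0.803). The call stands close to the threshold. It was kept without LysoMac array 2 (adjusted p = 0.0284) and lost without any 1 of the other 8 arrays (adjusted p = 0.0574 to 0.209), with each array centred on its median (0.0855), with 1 weight per population (0.0692) and with the 2 populations fitted alone (0.111).

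Of 9 hydrolases of glycolipids and their helpers, 7 had their lowest mean in C5aR- cells (41% of all clusters). In 4 all C5aR+ arrays lay above all C5aR- arrays (5.12% of all clusters). Asah1, the acid ceramidase, read 8.55, 8.21 and 8.54 in LysoMac, 8.38, 8.02 and 8.17 in C5aR+ cells and 7.71, 7.49 and 7.86 in C5aR- cells. Again every C5aR- array was below all others, with a difference of -0.75 ± 0.17 from LysoMac (adjusted p = 0.0707) and of 0.51 ± 0.17 between the LysoDC populations (adjusted p = 0.589). Galc, which cleaves galactosylceramide, read 5.99, 5.21 and 6.15 in LysoMac, 5.24, 5.46 and 5.56 in C5aR+ cells and 5.02, 4.73 and 4.93 in C5aR- cells. Its C5aR- arrays were likewise below the rest, by 0.89 ± 0.24 from LysoMac (a difference of -0.89, adjusted p = 0.136). Without LysoMac array 2 Galc passed, at -1.18 ± 0.15 (adjusted p = 0.0184), and without array 3 the difference was -0.70 ± 0.24 (adjusted p = 0.129). Neu1, the sialidase, separated the LysoDC populations without overlap (6.69, 6.80 and 7.29 against 5.85, 6.21 and 6.54), with a difference of 0.73 ± 0.26 (adjusted p = 0.680). Smpd1, the acid sphingomyelinase, read 5.85, 6.02 and 5.38 in C5aR+ and 5.29, 5.17 and 5.18 in C5aR- cells, inside a LysoMac range of 4.61 to 6.69. Its second, dimmer cluster differed by 0.16 between the LysoDC populations, against 0.54 for the one used.

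In the other 5 genes of that group the arrays of each pair of populations overlapped. Psap, the precursor of the saposin activators, averaged 12.33, 12.40 and 12.11 in LysoMac, C5aR+ and C5aR- cells. Hexa, the alpha subunit of beta-hexosaminidase, averaged 9.91, 10.06 and 9.57, and Arsa, which removes sulfate from sulfatide, averaged 6.49, 6.20 and 6.06. Gla, the alpha-galactosidase with a pair of TCACGTGA words, averaged 8.14, 8.57 and 8.39. Gm2a, the activator that presents gangliosides to beta-hexosaminidase, was the 1 gene with a lower mean in C5aR+ than in C5aR- cells, by -0.12 ± 0.20.

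Hydrolases of glycogen and other glycans had their highest means in LysoMac for 6 of 7 genes (46.1% of all clusters). Sgsh, the sulfamidase of heparan sulfate breakdown, read 6.67, 5.97 and 6.74 in LysoMac, 6.15, 5.56 and 5.47 in C5aR+ cells and 5.11, 5.09 and 5.68 in C5aR- cells. LysoMac lay above C5aR- cells in every array, a difference of -1.17 ± 0.28 for C5aR- cells (adjusted p = 0.0884), and the difference for C5aR+ cells was -0.73 ± 0.28 (adjusted p = 0.793). Gaa, the acid alpha-glucosidase that digests glycogen, read 7.20, 6.97 and 7.77 in LysoMac, 7.18, 6.65 and 6.78 in C5aR+ cells and 6.25, 6.11 and 6.74 in C5aR- cells. Its difference between C5aR- cells and LysoMac was -0.94 ± 0.25 (adjusted p = 0.137), again without overlap. Naglu, another enzyme of heparan sulfate breakdown, had a difference of -1.04 ± 0.54 (adjusted p = 0.451), but the LysoMac arrays, with a mean of 6.94 and an SD of 1.09, overlapped the C5aR- arrays of 5.59, 5.74 and 6.37. Man2b1 and Manba, which remove mannose, and Arsb, an arylsulfatase, differed by -0.33 to 0.10 in the 3 comparisons. A second cluster of Arsb, dimmer than the one used, differed by -1.26 between C5aR- cells and LysoMac (adjusted p = 0.473), against -0.33. Gusb, the beta-glucuronidase, was highest in C5aR+ cells with means of 7.96, 8.32 and 8.10.

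Of the other lumenal proteins, Npc2, which hands cholesterol to the membrane, averaged 8.91, 9.28 and 8.69, and Grn, the progranulin precursor of lysosomal granulins, averaged 9.57, 10.00 and 9.80 in the same order of populations. Neither gene separated any pair. Npc2 spread widely within each population (SD 0.52 in all 3).

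All 6 membrane proteins were higher on average in C5aR+ than in C5aR- cells, by 0.24 to 0.68, and in 5 of 6 the arrays did not overlap (5.12% of all clusters). In Lamp2 and Ctns they nearly touched. With limma 0 of 6 passed, and 2 had an unadjusted p under 0.05. Scarb2, the receptor that carries beta-glucocerebrosidase to lysosomes, read 8.93, 8.61 and 9.41 in LysoMac, 8.87, 8.83 and 8.49 in C5aR+ cells and 8.10, 7.89 and 8.21 in C5aR- cells. The C5aR- arrays were below all others, with differences of -0.91 ± 0.22 from LysoMac (adjusted p = 0.0881) and of 0.66 ± 0.22 between LysoDC populations (adjusted p = 0.577). Npc1, the membrane partner of Npc2 in cholesterol export, read 8.05, 7.71 and 8.64 in LysoMac, 7.85, 7.53 and 8.58 in C5aR+ cells and 7.41, 7.28 and 7.24 in C5aR- cells. It too was lowest in every C5aR- array, with differences of -0.82 ± 0.30 from LysoMac (adjusted p = 0.281) and of 0.68 ± 0.30 between LysoDC populations (adjusted p = 0.896). A second cluster of Npc1 lay below the median of every array and gave no usable level.

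Lamp1, a main glycoprotein of the lysosomal membrane whose promoter is printed above, read 11.04, 10.83 and 11.22 in LysoMac, 11.06, 10.82 and 10.68 in C5aR+ cells and 10.77, 10.25 and 10.56 in C5aR- cells. C5aR- cells lay below LysoMac in every array, by a difference of -0.50 ± 0.18 (adjusted p = 0.287), and overlapped C5aR+ cells. Its relative Lamp2 averaged 9.19, 9.39 and 9.15 in LysoMac, C5aR+ and C5aR- cells. Mcoln1, the calcium channel of lysosomes, averaged 6.96, 7.12 and 6.81, and Ctns, the cystine exporter, averaged 5.86, 6.34 and 5.67. For these 3 genes all C5aR+ arrays were above all C5aR- arrays, whereas LysoMac arrays spread across both. The gap was slight for Lamp2 (lowest C5aR+ array 9.232, highest C5aR- array 9.230) and for Ctns (6.02 and 6.01).

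All 10 listed subunits of the proton pump had higher means in LysoDC with C5aR than in those without. The median difference was 0.52, and in 4 of 10 the arrays did not overlap (5.12% of all clusters). With limma 0 of 10 passed, and 1 had an unadjusted p under 0.05. Between C5aR- LysoDC and LysoMac, 7 differences were below 0 and 3 above. In the membrane sector, Atp6v0b, a subunit of the proton-carrying ring, read 10.74, 10.28 and 10.87 in LysoMac, 10.81, 10.48 and 10.26 in C5aR+ cells and 9.99, 9.60 and 9.72 in C5aR- cells. All C5aR- arrays were below all others, by -0.86 ± 0.21 from LysoMac (adjusted p = 0.0949), and C5aR+ cells differed from them by 0.75 ± 0.21 (adjusted p = 0.427). Atp6v0d1, the common form of the d subunit, averaged 8.21, 8.50 and 8.19, while Atp6v0a1, a form of the a subunit, averaged 4.36, 4.94 and 4.82.

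Atp6v0d2, the form of the d subunit known from macrophages and bone-resorbing osteoclasts, was the most variable gene. It read 6.22, 3.63 and 7.53 in LysoMac, 4.31, 2.61 and 3.13 in C5aR+ cells and 2.28, 2.47 and 2.28 in C5aR- cells. It lay above the array median in LysoMac arrays 1 and 3 and C5aR+ array 1 alone. The mean of 2.34 in C5aR- cells and C5aR+ arrays 2 and 3 are thus near background, so that the size of the differences is uncertain. C5aR- cells differed from LysoMac by -3.45 ± 0.84 (adjusted p = 0.0979). This became -4.53 ± 0.52 without LysoMac array 2 (adjusted p = 0.0125) and -2.58 ± 0.72 without array 3 (adjusted p = 0.0842). The value for C5aR+ cells against LysoMac was -2.44 ± 0.84 (adjusted p = 0.760), with -3.52 without LysoMac array 2 and -1.57 without array 3. The SD within LysoMac, 1.99, exceeded that of every other gene of the list.

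In the V1 sector, which splits ATP, all 6 listed subunits had their highest means in C5aR+ LysoDC on the clusters used. Of all clusters, 25% were highest there. Some V1 subunits outside the list were instead highest in C5aR- cells or in LysoMac. For the 6 listed, the differences from C5aR- cells ran from 0.32 to 0.77 and those from LysoMac from 0.22 to 1.37, and none passed. Atp6v1b2, a subunit of the catalytic head, read 9.83, 9.65 and 10.38 in C5aR+ against 9.10, 8.89 and 9.59 in C5aR- cells, the 1 V1 subunit without overlap between them, with 9.53, 9.15 and 10.51 in LysoMac. A second, dimmer cluster of Atp6v1b2 had its highest mean in LysoMac instead, with means of 7.49, 7.18 and 6.36 in LysoMac, C5aR+ and C5aR- cells. Atp6v1d, part of the rotor, read 5.83, 3.83 and 6.97 in LysoMac, 6.53, 6.71 and 7.51 in C5aR+ cells and 6.10, 6.68 and 6.64 in C5aR- cells. Its largest difference, 1.37 ± 0.66 for C5aR+ cells against LysoMac (adjusted p = 0.802), came with an SD of 1.59 in LysoMac, where array 2 was lowest. It was 0.51 without LysoMac array 2 and 2.08 without array 3, and the difference of 0.93 ± 0.66 for C5aR- cells became 0.072 and 1.64. Atp6v1c1, a stalk subunit, was highest in C5aR+ array 3 (8.66, against 6.85 and 7.82 in arrays 1 and 2). Atp6v1a, the catalytic subunit, averaged 7.06, 7.34 and 7.02, Atp6v1e1 of the stalk 8.36, 8.91 and 8.53, and Atp6v1h, which regulates the sector, 5.79, 6.05 and 5.46 in LysoMac, C5aR+ and C5aR- cells. The C5aR+ means of the V1 genes leaned on array 3, whose average over them was 0.95 above the 9-array mean, against -0.023 and 0.15 in arrays 1 and 2. Array 3 also had the highest average over them within LysoMac (0.58) and within C5aR- cells (0.11).

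Tfeb itself was nearly flat. It read 4.74, 4.30 and 4.63 in LysoMac, 4.85, 4.88 and 4.73 in C5aR+ cells and 4.73, 4.77 and 4.58 in C5aR- cells. Its differences were 0.13 to 0.26 with SEs of 0.15, and none passed.

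**Figure D4:**
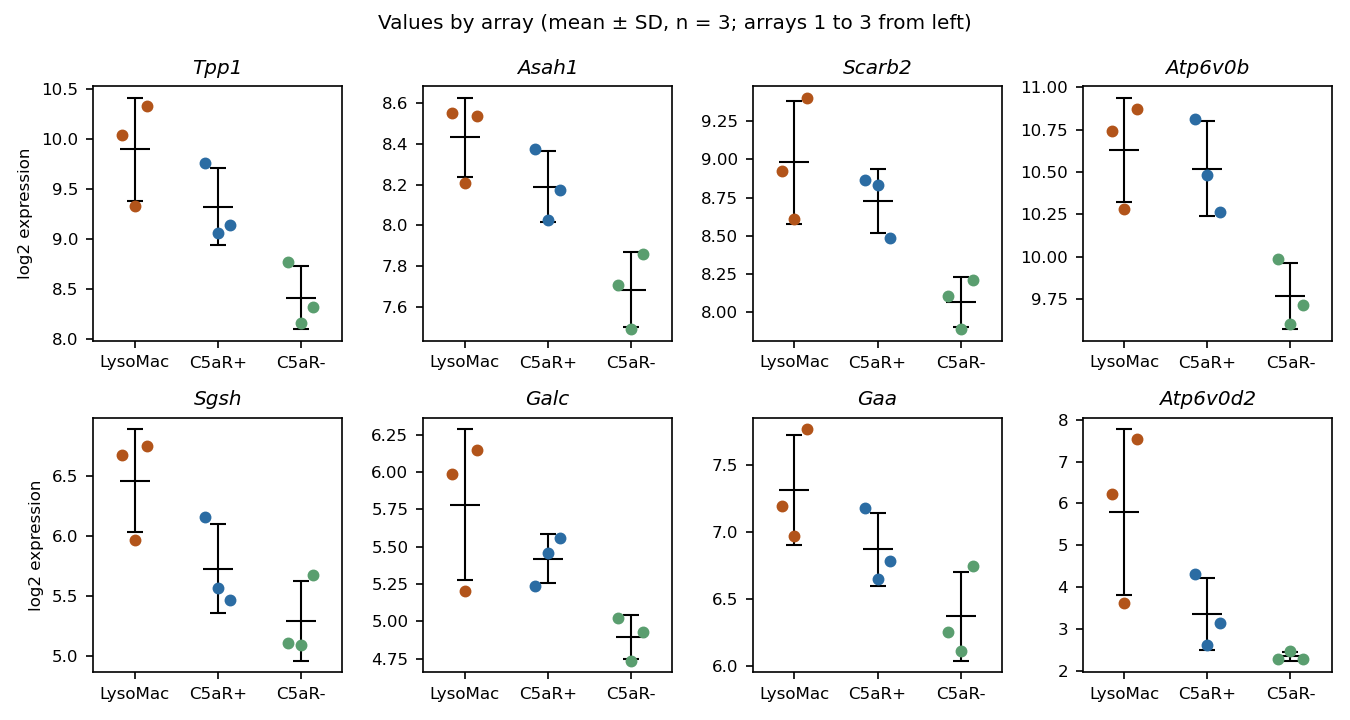
Points are arrays 1 to 3 from left to right, and bars give the mean ± SD (n = 3) of the log2 value for 8 genes, each on its own axis. In all 8 panels the C5aR- arrays lie below the LysoMac arrays, and in Sgsh and Gaa they overlap the C5aR+ arrays. Atp6v0d2 shows the wide spread in LysoMac, from 3.63 to 7.53.

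The level of the whole list differed more between LysoMac arrays than between populations. As the mean deviation of the 36 genes from their 9-array means, LysoMac arrays 1 to 3 stood at 0.13, -0.41 and 0.66, C5aR+ arrays at 0.15, -0.045 and 0.35, and C5aR- arrays at -0.38, -0.37 and -0.093. All C5aR- arrays were thus below all C5aR+ arrays, and the LysoMac arrays spanned both. LysoMac array 2 also had the narrowest interquartile range of all clusters (2.16) and array 3 the widest (2.68). The part of these array properties in the levels was not tested beyond rescaling. With quantile normalization LysoMac array 2 moved to -0.13 and array 3 to 0.54, and with cyclic loess to -0.032 and 0.54. Under either scaling 7 genes, the same 7, were lower in C5aR- LysoDC than in LysoMac: Tpp1, Scarb2, Galc, Asah1, Gaa, Sgsh and Atp6v0b, with differences beside Tpp1 of -0.96 to -1.32 after quantile normalization and adjusted p of 0.0195 to 0.0338. Over all clusters, 137 of 518 calls were lower as deposited, 274 of 710 after quantile normalization and 291 of 735 after cyclic loess. The mean variance of the 36 genes was 0.453 in LysoMac, 0.167 in C5aR+ and 0.0737 in C5aR- LysoDC, whereas limma assumed a common one.

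**Figure D5:**
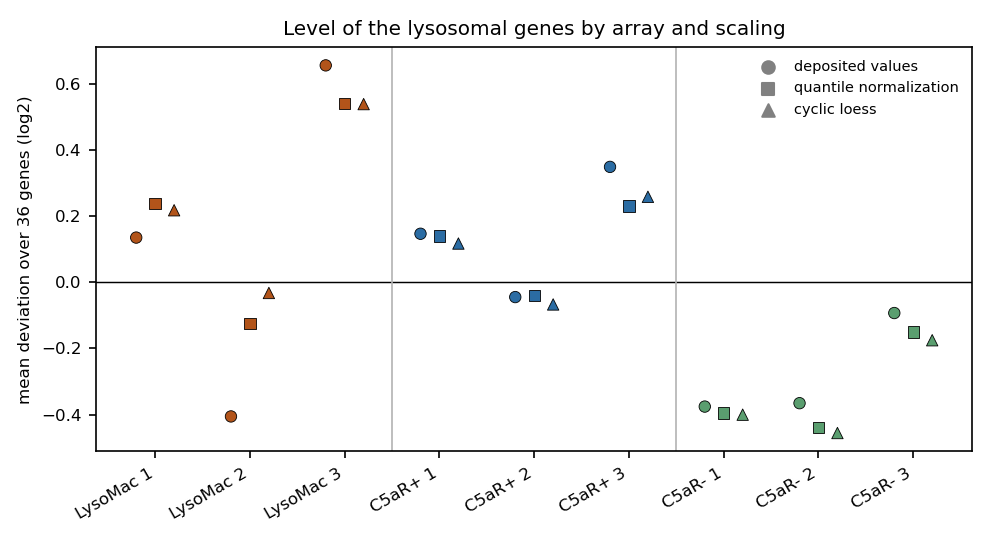
The mean deviation of 36 lysosomal genes from their 9-array means (log2) for each array, as deposited (circles), after quantile normalization (squares) and after cyclic loess (triangles). LysoMac array 2 lies at -0.41 as deposited and at -0.13 and -0.032 after scaling, while C5aR- arrays lie below C5aR+ arrays under each scaling.

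Other lysosomal genes, 109 in 6 lists, showed the same split between the LysoDC populations in part. Of them 83 had a difference above 0 between C5aR+ and C5aR- cells, with a median of 0.23 (53.3% and 0.015 over all clusters). In 29 all C5aR+ arrays were above all C5aR- arrays (5.12% of clusters), against 1 below. None passed in limma, and 21 had an unadjusted p under 0.05, of which 20 were higher in C5aR+ cells (2.36% of clusters). Against LysoMac, 3 of the 109 fell and 2 rose in C5aR- cells and 1 rose in C5aR+ cells. Of all 33793 clusters, 137 fell and 381 rose in C5aR- cells and 17 rose in C5aR+ cells. Among 19 MiT/TFE and nutrient-signalling genes Tfec, a relative of Tfeb found in macrophages, fell by 1.79 ± 0.25 from LysoMac to C5aR- cells (adjusted p = 0.0109), with arrays of 7.39, 7.89 and 8.06 against 5.80, 6.06 and 6.13. The C5aR+ arrays of Tfec, 7.42, 7.37 and 6.67, lay above the C5aR- ones. Of 30 other membrane proteins Slc36a1, an amino acid exporter, fell by 1.28 ± 0.25 (adjusted p = 0.0463), while Cd63 and Cd68, the brightest, differed by -0.73 and -0.26 and did not pass. Of 13 genes that sort proteins to lysosomes, most through the mannose 6-phosphate tag, Sort1, a receptor that does not need the tag, rose by 2.17 ± 0.43 (adjusted p = 0.0458), with 4.35, 4.23 and 3.50 in LysoMac and 6.51, 6.58 and 5.51 in C5aR- cells.

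None of 20 further hydrolases and cofactors passed in limma against LysoMac in C5aR- cells, where 9 had an unadjusted p under 0.05 and 17 were below 0. Acp5 and Ppt1, the brightest, differed by -0.89 ± 0.24 (adjusted p = 0.140) and -0.15 ± 0.23. None of 14 further pump subunits and accessory proteins passed either, with 2 at an unadjusted p under 0.05, and their median difference between the LysoDC populations was 0.056, against 0.52 over the 10 pump subunits described above. Of 13 cathepsins and legumain, Ctsd fell by 2.19 ± 0.21 and Lgmn rose by 3.94 ± 0.49 in C5aR- cells against LysoMac (adjusted p = 0.00245 and 0.00721), and Lgmn rose by 4.54 ± 0.49 in C5aR+ cells (adjusted p = 0.0150).

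Cell type markers moved beside these differences. Of 11 macrophage markers 5 fell from LysoMac to C5aR- LysoDC (Mertk, C1qb, C1qc, Cx3cr1 and Vcam1), where 0.405% of all clusters passed as lower. Another 3 had higher means in C5aR- cells than in LysoMac, 1 of them with an unadjusted p under 0.05 in limma. All 11 had higher means in C5aR+ than in C5aR- cells, with a median of 0.97, though 0 passed in limma (8 at an unadjusted p under 0.05). The mean level of that list ran from 7.36 to 7.74 in LysoMac, 7.90 to 8.38 in C5aR+ and 6.83 to 7.48 in C5aR- arrays. Of all 33793 clusters, 381 rose from LysoMac to C5aR- cells and 17 from LysoMac to C5aR+ cells, and 32 were lower in C5aR+ than in C5aR- cells. Of 10 dendritic cell markers 6 rose from LysoMac to C5aR- cells (Flt3, Itgae, Ccr7, Irf4, Batf3 and H2-Aa). From LysoMac to C5aR+ cells 1, H2-Aa, rose, and 2, Flt3 and Itgae, were lower in C5aR+ than in C5aR- cells. Of 9 epithelial and M cell markers 2 were likewise lower in C5aR+ than in C5aR- cells, Gp2 by -3.28 ± 0.32 and Cdh1 by -2.11 ± 0.28 (limma, adjusted p = 0.0136 and 0.0368). Markers of other cells rose in C5aR- cells against LysoMac in 2 of 7 B cell (Cr2 and Blk), 1 of 5 plasma cell (Jchain), 3 of 9 epithelial and M cell (Epcam, Cdh1 and Gp2) and 2 of 7 stromal genes (Lum and Kdr), and in 0 of 4 T cell and 0 of 6 neutrophil genes (in limma, 0 and 0 at an unadjusted p under 0.05). Krt20 and Vil1 of the epithelial list and S100a8 and S100a9 of the neutrophil list lay below the median of every array. The part of these markers in the lysosomal differences was not tested.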

How the data were processed

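Gene expression was measured in 9 samples of sorted mouse Peyer's patch phagocytes, 3 per population, on an Affymetrix whole-transcript array after low-input amplification, per the labels' protocols. The deposited values are log2 expression per transcript cluster, made with RMA and Affymetrix Power Tools per the submitters' processing notes. Their versions and options are not stated in the sources at hand. The values were used as deposited, with all 33793 clusters and no filter. The annotation gives 23521 clusters 1 symbol, 1814 several and 8458 none.

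Groups and replicate numbers came from the titles. For arrays 2 and 3 of C5aR- LysoDC the source labels give other receptor names. The labels do not tie arrays to animals, and p-values thus reflect only array-to-array spread, possibly technical. With limma 3.58.1 in R 4.3.3, 1 mean per population was fitted over 9 arrays (6 residual degrees of freedom), with two-sided moderated tests and Benjamini-Hochberg adjustment over all clusters at 0.05. The number of arrays limits the precision, with a median SE of 0.26 for the genes described. The fit was tested on simulated data. Same-numbered arrays of C5aR+ LysoDC and LysoMac deviated together (Pearson r = 0.16, 0.26 and 0.41), with no reason in the labels. In the other comparisons not every such r exceeded 0.1.

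All genes of the list are named, and of other lists up to 4 passing genes with the smallest adjusted p, or else the 2 brightest. Markers are named where they passed or lay below the array medians. Fcgr1, Csf1r and C1qa, which did not pass in any comparison, are named beyond this rule. The gene lists, the motif letters and these rules were chosen with earlier results of these data known. The alternatives tried comprised the replicate number as a block, quantile normalization, median centring and cyclic loess, a filter on dim probes, the mean of all clusters of a gene, population weights, fits of 2 populations alone and leaving out each array. Promoter windows came from RefSeq, and no coordinates of the array's probes were used.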

Additional observations from a re-analysis of the deposited data

How the results depend on the processing

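The 1 gene passing for C5aR- LysoDC against LysoMac became 2 with the replicate number as a block (replicate block; Asah1 beside Tpp1), 7 with quantile normalization and 7 with cyclic loess, and 0 with median centring, population weights or the 2 populations alone. Over all clusters 1.53% passed in this comparison as deposited, 2.1% with the replicate block, 2.1% with quantile normalization and 2.18% with cyclic loess. With median centring 1.34% passed, with population weights 0.965% and with the 2 populations alone 0.701%. Leaving out single arrays gave 0 to 3 genes, where 130 to 1256 of 33793 clusters passed. The 0 genes of the F test became 1 with the replicate block, 1 with quantile normalization, 3 with cyclic loess and 0 to 2 without single arrays. The dim-probe filter and the mean of clusters left both counts at 1 and 0. For C5aR- LysoDC against LysoMac, 3.87% of 17719 clusters and 2.43% of 22180 genes passed with them. Both other comparisons stayed at 0 in every setting, the replicate block included. Some settings cannot change a difference of means. These are the replicate block, population weights, the 2 populations alone, and leaving out an array of the population not compared. In all settings together, these included, 29 genes kept a difference above 0 between C5aR+ and C5aR- cells and 1 below. Between C5aR- cells and LysoMac, 19 kept one below 0. Of 1632 values recomputed, many of them thus fixed, 63 changed sign. For 0 of these had the gene passed in that same comparison, either as deposited or in that setting. The largest such difference was 0.48 as deposited. The cause of these changes was not tested. Signal near background limits Atp6v0d2.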

Other observations

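The lysosomal genes of this paragraph lie outside the main list and were picked after their values were seen. Laptm4b and Scpep1 went against the direction of the main list, whereas Gga2 and Mitf went with it. Laptm4b, a lysosomal membrane protein, had the most negative difference between C5aR+ and C5aR- LysoDC among 109 other lysosomal genes, at -2.05 (adjusted p = 0.184). Scpep1, a serine carboxypeptidase, differed from LysoMac by 1.70 in C5aR+ and 2.11 in C5aR- cells (adjusted p = 0.793 and 0.190). Gga2, a sorting adaptor, differed from LysoMac by -2.02 in C5aR- cells (adjusted p = 0.0577). Mitf, a further relative of Tfeb, read 7.15, 7.06 and 7.74 in LysoMac, 7.76, 7.22 and 6.91 in C5aR+ and 6.59, 5.76 and 5.98 in C5aR- cells, so that every C5aR- array lay below all others, as for Tfec. Its difference between the LysoDC populations was 1.19 (adjusted p = 0.303). Tfe3 read 5.93, 5.35 and 6.03 in LysoMac, 6.01, 5.92 and 6.65 in C5aR+ and 6.03, 6.11 and 6.52 in C5aR- cells and showed no such order.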
